A study of Mus musculus with 16 samples.

Results

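The genes described here mark the neural crest and the mesenchyme of the limb bud and face in the mouse embryo: Prrx1, Msx1, Msx2, Ngfr, Sox10, Tfap2a, Twist1, Foxd3, Hand2 and Pax3. The 10 genes were taken by symbol, with every probe that carries that symbol in the platform annotation, and 9 of them had a probe among the 16593 genes on the array, the exception being Sox10. Homozygous MommeD1 embryos, in which a nonsense mutation made with the mutagen ENU inactivates the chromatin gene Smchd1, were compared with wildtype embryos of the same sex, all on the inbred FVB/n background and all at embryonic day 9.5. The 4 groups of MommeD1 females, wildtype females, MommeD1 males and wildtype males held 4 embryos each, from crosses of heterozygous parents, measured on 16 Illumina MouseRef-8 BeadChip arrays in all. MommeD1 is a mutation in every cell of the embryo, the RNA came from whole embryos, and in such samples fewer cells of a type and less RNA per cell cannot be told apart. The arrays lay on 2 chips of 8, with 2 arrays of each group on each chip.

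Neural crest cells form at the border of the neural plate, leave it by migration and give rise to the skeleton and connective tissue of the face, to peripheral neurons and glia and to pigment cells. BMP and Wnt signals at the border switch on Msx1, Msx2, Tfap2a and Pax3, and Foxd3 and Sox10 then mark the premigratory and migrating crest. At this stage crest mesenchyme fills the pharyngeal arches and the forelimb bud has begun to grow from the lateral plate mesoderm, where Prrx1, Twist1, Msx1 and Hand2 are also expressed.

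The genes whose values differ between the genotypes lie on different chromosomes, and the 250 bases that precede their annotated start are printed for Prrx1, Msx1 and Ngfr, and for Msx2 as the close relative of Msx1. The sequences are from RefSeq on GRCm38.p6 and run 5′ to 3′ on the strand of the gene. Capitals mark TAATTA, the core that many homeodomain proteins, among them those of the Prrx and Msx families, bind in vitro.
Prrx1, chr1:163313651-163313900, minus strand: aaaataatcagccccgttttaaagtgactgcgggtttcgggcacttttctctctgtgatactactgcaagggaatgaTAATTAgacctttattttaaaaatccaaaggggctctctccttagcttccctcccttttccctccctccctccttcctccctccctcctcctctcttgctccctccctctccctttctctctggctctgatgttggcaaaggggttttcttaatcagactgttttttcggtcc
Msx1, chr5:37824586-37824835, minus strand: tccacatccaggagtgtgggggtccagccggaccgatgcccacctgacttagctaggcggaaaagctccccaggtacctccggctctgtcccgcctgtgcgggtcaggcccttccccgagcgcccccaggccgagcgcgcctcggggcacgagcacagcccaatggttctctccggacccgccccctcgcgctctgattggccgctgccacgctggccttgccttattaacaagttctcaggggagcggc
Ngfr, chr11:95587699-95587948, minus strand: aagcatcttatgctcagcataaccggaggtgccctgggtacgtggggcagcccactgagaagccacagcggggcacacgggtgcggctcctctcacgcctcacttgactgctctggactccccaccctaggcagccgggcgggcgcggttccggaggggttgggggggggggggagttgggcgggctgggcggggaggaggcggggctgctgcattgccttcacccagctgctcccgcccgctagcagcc
Msx2, chr13:53472781-53473030, minus strand: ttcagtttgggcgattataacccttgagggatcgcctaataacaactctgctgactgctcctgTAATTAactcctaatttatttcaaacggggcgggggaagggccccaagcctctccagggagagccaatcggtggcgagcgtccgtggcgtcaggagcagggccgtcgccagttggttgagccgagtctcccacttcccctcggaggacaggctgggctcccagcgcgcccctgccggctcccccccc
Of the 10 genes, 8 had a RefSeq promoter window and Tfap2a had 2, which made 9 windows. TAATTA, which reads the same on both strands, was found in 4 of these 9 windows of 300 bases (Prrx1, Msx2, Hand2 and 1 window of Tfap2a), against 5.29% of all 32851 windows. CATATG, an E-box of the kind bound by Twist proteins, was in 0 of the 9 windows and in 3.91% of all, and GGCGCC, a GC element bound by SMAD proteins, was in 1 (Hand2) and in 11.9% of all. No match overlapped another motif. The 250 bases before the start held 4 CG pairs in Prrx1, 20 in Msx1, 16 in Ngfr and 16 in Msx2, against a median of 6 over all windows. The Prrx1 window was thus close to the middle of all windows in CG pairs (44.4% of windows had no more than it), whereas the Msx1 window stood at 83.7%. These letters are a description of the windows and were not set against the expression values.

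The deposited values are log2 intensities normalized between arrays, and probes above 7 on at least 4 arrays were kept for testing. Of the 14 probes to the 9 genes, 8 were kept, and these measured 6 genes, Prrx1, Msx1, Msx2, Ngfr, Tfap2a and Twist1. The only probes to Foxd3, Hand2 and Pax3 exceeded 7 on 0 of the 16 arrays. Smchd1 itself checked the labels: it lay between 7.34 and 7.60 in the MommeD1 arrays and between 9.72 and 9.98 in the wildtype arrays, a log2 fold change of −2.43 ± 0.07 in females and −2.34 ± 0.07 in males (SE, n = 4 per group). Transcripts of the yolk sac endoderm, a tissue outside the embryo proper that the study removed for genotyping, varied between arrays. The mean deviation of 10 such genes spanned −0.92 to 2.19 in MommeD1 females, −0.62 to 0.60 in wildtype females, −0.92 to 1.25 in MommeD1 males and −0.95 to 1.19 in wildtype males. It was highest in MommeD1 female 2, MommeD1 male 1 and wildtype male 3, and results are given with and without these 3 arrays.

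In female embryos, 3 of the 6 genes were lower in MommeD1 than in wildtype, namely Prrx1, Msx1 and Ngfr, and 0 were higher. Their levels were between 1.33-fold and 1.19-fold lower. In comparison, 7.47% of the 6999 genes tested passed the same threshold in females in either direction and 3.33% passed it as lower (limma, adjusted p under 0.05 with Benjamini-Hochberg adjustment over all genes). The genes, and the lists read below, were chosen with earlier results of these data known. Such shares are therefore given as a description, and an excess over them is not evidence about the set. The median log2 fold change was −0.19 over the 6 genes and −0.01 over all genes. In males, 0 of the 6 genes passed the threshold, which 0.114% of all genes did, and 2 of the 6 had an unadjusted p under 0.05 (11.2% of all genes). With both sexes averaged, Prrx1 and Msx1 were lower, 2 of 6 against 11% of all genes in either direction and 5.26% as lower. No array enters both the female and the male contrast.

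**Figure D1:**
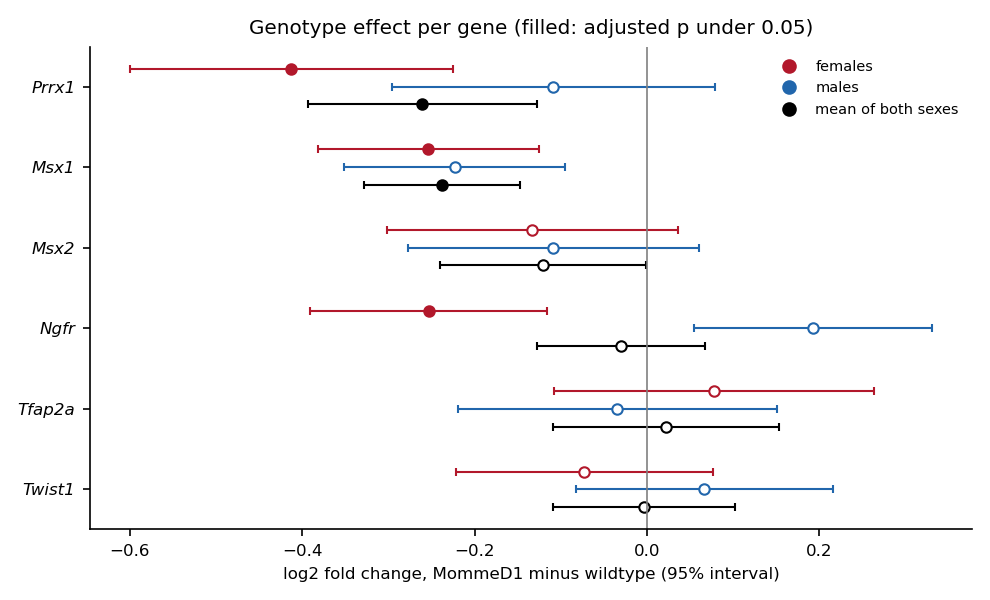
Log2 fold change of MommeD1 minus wildtype for the 6 tested genes, with 95% intervals from the fit, in females (red), in males (blue) and averaged over both sexes (black), n = 4 arrays per group. Filled points passed the adjusted threshold: Prrx1, Msx1 and Ngfr in females, and Prrx1 and Msx1 over both sexes.

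Prrx1 is a paired-type homeobox factor of limb bud and facial mesenchyme. Its brightest probe gave 7.93, 7.47, 7.52 and 7.45 in MommeD1 females, against 8.09, 7.99, 7.97 and 7.96 in wildtype females. All 4 MommeD1 females were below all 4 wildtype females, and MommeD1 female 1 was close to them while the other 3 lay well apart. Female groups that did not overlap, in either direction, were found for 15.1% of the 6999 genes tested. The log2 fold change in females was −0.41 ± 0.09 (SE, n = 4 per group, limma adjusted p = 0.00931), a 1.33-fold lower level. In males the same probe gave 7.91, 7.87, 7.86 and 7.78 in MommeD1 and 7.87, 8.16, 7.92 and 7.89 in wildtype. These groups overlapped, and the male log2 fold change of −0.11 ± 0.09 did not pass the test (limma adjusted p = 0.676). Averaged over both sexes Prrx1 was −0.26 ± 0.06 (adjusted p = 0.0149). The effect in females minus that in males was −0.30 ± 0.13 and not past the threshold (adjusted p = 0.553), so a difference between the sexes was not established for Prrx1. Within the chips the female value was −0.34 on chip 1 (adjusted p = 0.342) and −0.49 on chip 2 (adjusted p = 0.0216), with 2 arrays per group on each. Without MommeD1 female 1 it was −0.53 (adjusted p = 0.000153), and without the 3 arrays high in yolk sac transcripts it was −0.37 (adjusted p = 0.0429).

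Prrx1 had 4 probes, which the platform assigns to 2 transcript records, A for probes 1 and 2 and B for probes 3 and 4. Probe 1 lies in the coding sequence by the probe annotation that accompanies the array. Its 50 bases are shown because the Prrx1 result rests on them.
Prrx1 probe 1, chromosome 1, minus strand: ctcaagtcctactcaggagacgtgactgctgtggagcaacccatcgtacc
Probe 2 gave 7.80, 7.37, 7.45 and 7.46 in MommeD1 females and 7.85, 7.75, 7.86 and 7.89 in wildtype females. It was lower in MommeD1 females by the same test when every kept probe was fitted, at −0.31 ± 0.09 (limma adjusted p = 0.0317), although MommeD1 female 1 reached the range of the wildtype. Probe 3 lay near the filter, at 6.90 to 7.11 in MommeD1 females and 6.98 to 7.34 in wildtype females, and its log2 fold change of −0.14 ± 0.08 did not pass (adjusted p = 0.3). Probe 4 ranged from 5.95 to 6.35 over all arrays, never above 7, and its female value was 0.01 ± 0.09. The 2 probes of record A thus shared the direction in females with probe 3 of record B, whose difference did not pass. MommeD1 female 1 was the highest MommeD1 female on probes 1, 2 and 3. In males the values were −0.05 ± 0.09 for probe 2 and −0.05 ± 0.08 for probe 3.

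**Figure D2:**
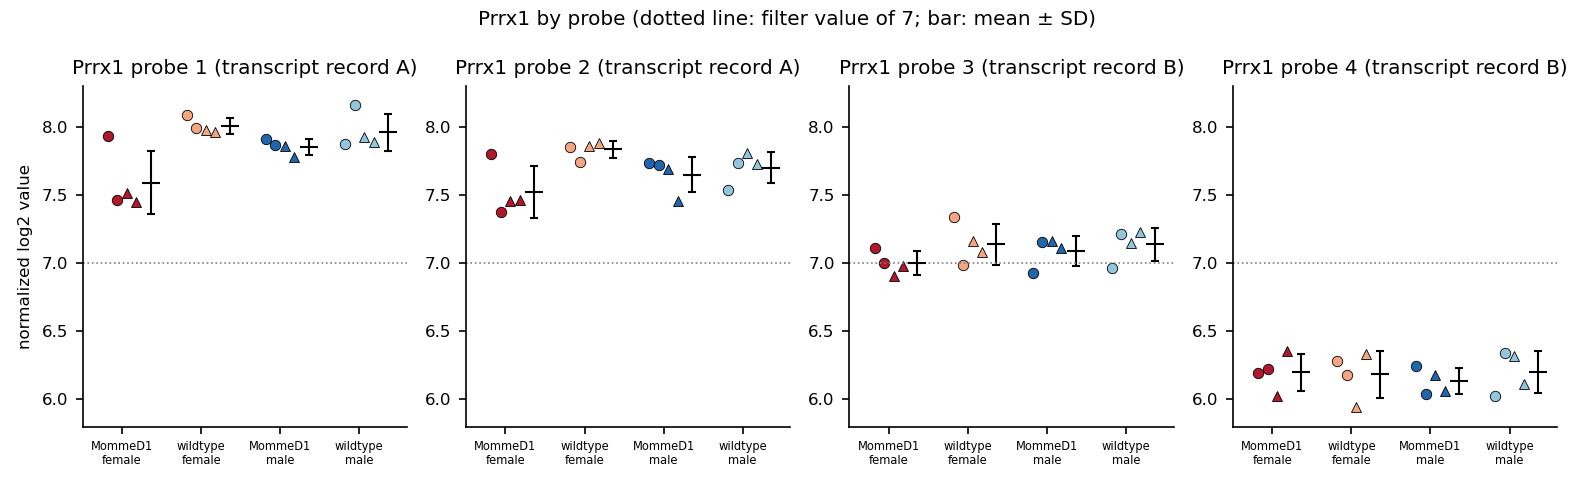
Normalized log2 values of the 4 Prrx1 probes on the 16 arrays, in 4 groups, each MommeD1 group left of its wildtype group. Circles are chip 1 and triangles chip 2, bars are the mean ± SD of 4 arrays, and the dotted line is the filter value of 7. All 4 MommeD1 females lie below all 4 wildtype females for probe 1 and 3 of the 4 for probe 2, and probe 4 stays between 5.95 and 6.35.

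Msx1, a homeobox repressor downstream of BMP signals in crest, limb and facial mesenchyme, was lower in MommeD1 females and in the average over both sexes. It measured 9.93, 9.87, 9.84 and 10.02 in MommeD1 females and 10.17, 10.18, 10.22 and 10.11 in wildtype females. In males it measured 10.06, 10.02, 10.01 and 10.04 in MommeD1 and 10.35, 10.33, 10.23 and 10.10 in wildtype. All 8 MommeD1 arrays were below all 8 wildtype arrays, a separation in the lower direction that 0.429% of all genes tested showed. The log2 fold change was −0.25 ± 0.06 in females (limma adjusted p = 0.017) and −0.24 ± 0.04 over both sexes (adjusted p = 0.00227), a 1.18-fold lower level. In males it was −0.22 ± 0.06, close to the female value, with an unadjusted p of 0.00169 and an adjusted p of 0.184. The 2 effects differed by −0.03 (95% interval −0.21 to 0.15, adjusted p = 0.971). The female call was lost without MommeD1 female 2 (adjusted p = 0.0501), without wildtype female 3 (0.0525), without the filter on dim probes (0.0571) and without the 3 arrays high in yolk sac transcripts (0.0624), whereas the call over both sexes was kept without any 1 array and without those 3 (adjusted p = 0.0101). Within the chips the value over both sexes was −0.29 on chip 1 (adjusted p = 0.0799) and −0.19 on chip 2 (0.157), so that neither chip alone passed. The probe annotation places the single Msx1 probe in the 3′ untranslated region and carries the remark that a transcript matches its reverse strand. Which strand the probe measures was not checked here, and the Msx1 values rest on the platform's assignment of the probe to this gene.

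Ngfr encodes the low-affinity neurotrophin receptor p75, a surface marker of migrating crest cells, and its genotype effect had opposite signs in the sexes. It measured 7.99, 7.88, 7.83 and 7.76 in MommeD1 females and 8.19, 8.04, 8.01 and 8.24 in wildtype females. In males it measured 8.18, 8.18, 8.17 and 8.11 in MommeD1 and 8.00, 8.05, 7.86 and 7.98 in wildtype. Neither sex had overlapping groups, with MommeD1 below in females and above in males, and 15.1% of genes in females and 6.32% in males were separated in 1 direction or the other. The log2 fold change was −0.25 ± 0.07 in females (limma adjusted p = 0.0239) and 0.19 ± 0.07 in males, which did not pass the adjusted threshold (adjusted p = 0.262, unadjusted p = 0.00873). The effect in females minus that in males was −0.45 ± 0.09 (adjusted p = 0.0382), a difference that 0.357% of all genes passed in either direction and 0.0143% in this direction, that is, Ngfr alone among the 6999. Averaged over both sexes the value was −0.03 ± 0.05 (adjusted p = 0.718).

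The Ngfr difference between the sexes stood close to its threshold. It kept its sign in all 27 alternative settings, between −0.55 and −0.34, but had an adjusted p over 0.05 in 16 of them. Leaving out single arrays lost the call for 12 of 16 (adjusted p from 0.0557 without MommeD1 male 4 to 0.116 without wildtype male 3), and it was kept only without MommeD1 female 1, wildtype female 2, wildtype female 3 or wildtype male 2. Without the 3 arrays high in yolk sac transcripts it was −0.41 (adjusted p = 0.218), and within the chips it was −0.34 on chip 1 and −0.55 on chip 2, with 2 arrays per group. The call in females alone was lost without MommeD1 female 3 (adjusted p = 0.0572), MommeD1 female 4 (0.0744), wildtype female 1 (0.0641) or wildtype female 4 (0.0771), without the 3 yolk sac-rich arrays (0.0517), without the filter on dim probes (0.0725) and in a fit of the female arrays alone (0.061), the design the study used. The female value was −0.18 on chip 1 (adjusted p = 0.415) and −0.33 on chip 2 (0.14). In order of group means, Ngfr was highest in MommeD1 males (8.16 ± 0.03, SD, n = 4), followed by wildtype females (8.12 ± 0.12), wildtype males (7.97 ± 0.08) and MommeD1 females (7.87 ± 0.10). The first pair in this order overlapped, as did the last. Among wildtype embryos Ngfr was 0.15 ± 0.07 higher in females than in males before adjustment (unadjusted p = 0.0355, limma adjusted p = 0.999), and the wildtype groups enter both this value and the difference of the genotype effects.

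**Figure D3:**
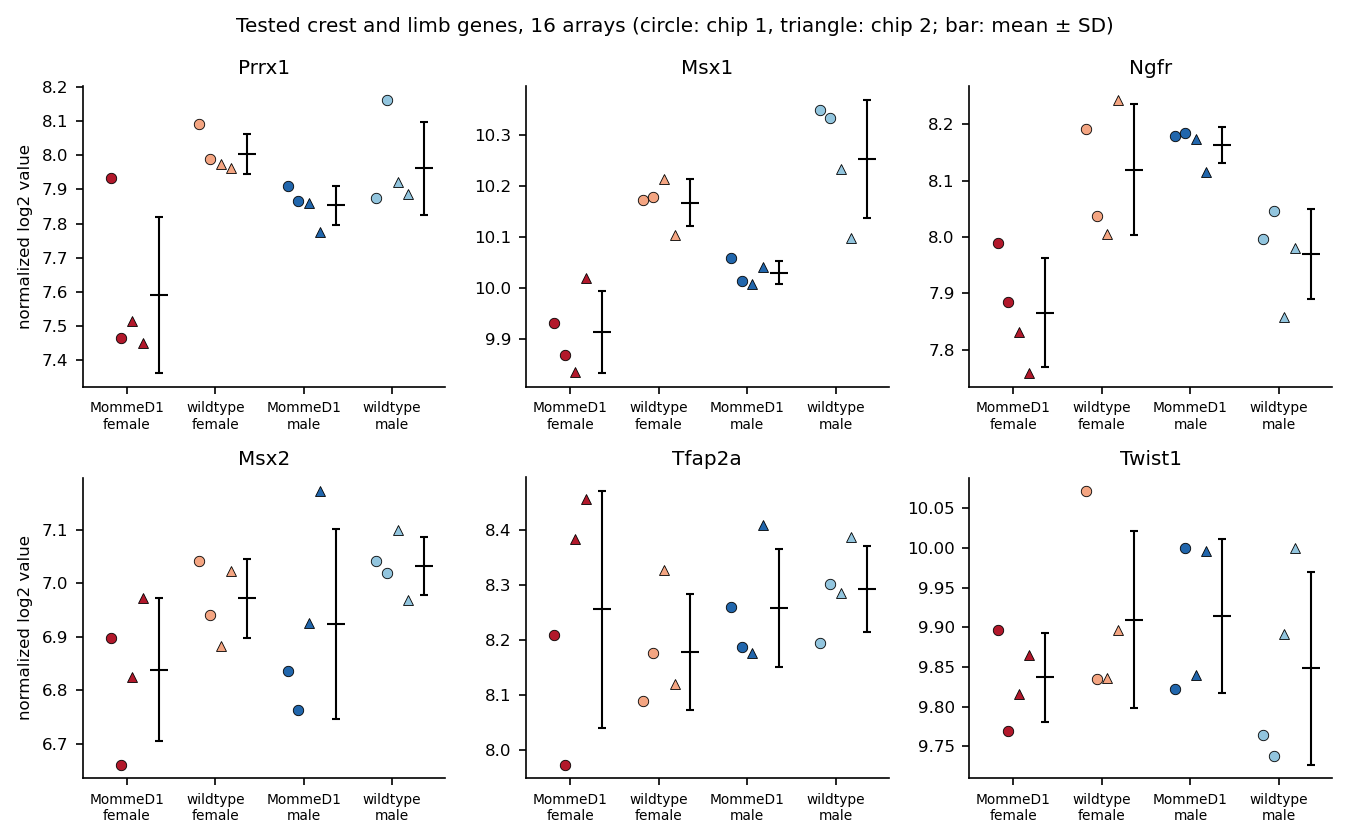
Normalized log2 values of the 6 tested genes on the 16 arrays, each MommeD1 group left of its wildtype group, with circles for chip 1, triangles for chip 2 and bars for the mean ± SD of 4 arrays. Msx1 has all 8 MommeD1 arrays below all 8 wildtype arrays, and Ngfr lies below wildtype in MommeD1 females (7.76 to 7.99) and above it in MommeD1 males (8.11 to 8.18). The vertical axes differ between genes.

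Msx2, the relative of Msx1 that acts with it in crest and limb mesenchyme, had values near the filter. It spanned 6.66 to 6.97 in MommeD1 females and 6.88 to 7.04 in wildtype females, and 6.76 to 7.17 in MommeD1 males and 6.97 to 7.10 in wildtype males. The groups overlapped in each sex, and the log2 fold change was −0.13 ± 0.08 in females (limma adjusted p = 0.321), −0.11 ± 0.08 in males (0.641) and −0.12 ± 0.06 over both (0.176). The last had an unadjusted p of 0.0472, so Msx2 ran in the direction of Msx1 without passing the threshold. Over both sexes it passed in 1 of 26 alternative settings, without MommeD1 male 4 (−0.16, limma adjusted p = 0.0472). Without the 3 arrays high in yolk sac transcripts it was −0.07 (adjusted p = 0.529). Within the chips it was −0.22 on chip 1 (adjusted p = 0.21) and −0.02 on chip 2 (0.905).

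Tfap2a, the AP-2 alpha factor of the neural plate border and early crest, was 8.21, 7.97, 8.38 and 8.46 in MommeD1 females and 8.09, 8.18, 8.33 and 8.12 in wildtype females. MommeD1 females held both the lowest and the highest of the 16 values. The log2 fold change was 0.08 ± 0.09 in females (95% interval −0.11 to 0.26) and −0.03 ± 0.09 in males (−0.22 to 0.15). Of the other 2 Tfap2a probes, which never exceeded 7, the female values were −0.02 and 0.03.

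Twist1, a basic helix-loop-helix factor needed in cranial crest and limb mesenchyme, averaged 9.84 ± 0.06 in MommeD1 females and 9.91 ± 0.11 in wildtype females, and 9.91 ± 0.10 in MommeD1 males and 9.85 ± 0.12 in wildtype males (SD, n = 4 each), with overlapping groups in both sexes. Its log2 fold change was −0.07 ± 0.07 in females (95% interval −0.22 to 0.08) and 0.07 ± 0.07 in males (−0.08 to 0.22). For Tfap2a and Twist1 no difference was detected, and neither female interval reached the −0.25 measured for Msx1. That value has its own 95% interval of −0.38 to −0.13, which the Twist1 interval overlapped. No difference between genes was tested.

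The 3 genes with dim probes were fitted with all probes on the array. Foxd3, a forkhead factor of premigratory crest, spanned 5.74 to 6.17 over the 16 arrays, and Pax3, a paired box factor of the dorsal neural tube and crest, spanned 5.93 to 6.49. Their log2 differences were −0.04 ± 0.09 and −0.02 ± 0.10 in females and 0.01 ± 0.09 and −0.00 ± 0.10 in males. Hand2, a basic helix-loop-helix factor of the posterior limb bud, pharyngeal arches and heart, gave 6.48 to 6.54 in MommeD1 females and 6.17 to 6.45 in wildtype females. These did not overlap, which 15.1% of the 6999 genes tested showed in females in 1 direction or the other. Those are genes with brighter probes, and Hand2 is not among them. The Hand2 difference in females was 0.20 ± 0.08, with a 95% interval of 0.04 to 0.36. Its limma p in the fit of all probes was 0.0144 unadjusted and 0.232 adjusted. In males the Hand2 difference was 0.00 ± 0.08. Wildtype females were the lowest group, with a mean of 6.30. The means were 6.51 in MommeD1 females, 6.55 in MommeD1 males and 6.55 in wildtype males. Wildtype females minus wildtype males was −0.24 ± 0.08, also not past the adjusted threshold. At this signal, no difference in Foxd3, Pax3 or Hand2 passed the adjusted threshold, which does not show that differences are absent.

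The 3 genes that were lower in females varied around their group means to different degrees. Over the 16 arrays, after removal of the group means, the correlation was 0.58 between Prrx1 and Ngfr, 0.20 between Prrx1 and Msx1 and −0.16 between Msx1 and Ngfr, given as a description over arrays that share 2 chips. The residual SD was 0.139 for Prrx1, 0.0751 for Msx1 and 0.0871 for Ngfr, against a median of 0.103 over all genes, so that Prrx1 was among the more variable genes (percentile 81.5) and Msx1 among the steadier (percentile 14.5). The 3 genes whose deviations were most like those of Prrx1 over the 16 arrays were Oat (r = 0.84), Hhat (0.83) and Nhlrc1 (0.83), those most like Msx1 were Pdlim5 (0.87), Grk6 (0.86) and Akap8 (0.83), and those most like Ngfr were Zfp532 (0.83), Wnk1 (0.82) and Hdac3 (0.81). None of these is among the genes of the crest and limb lists.

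**Figure D4:**
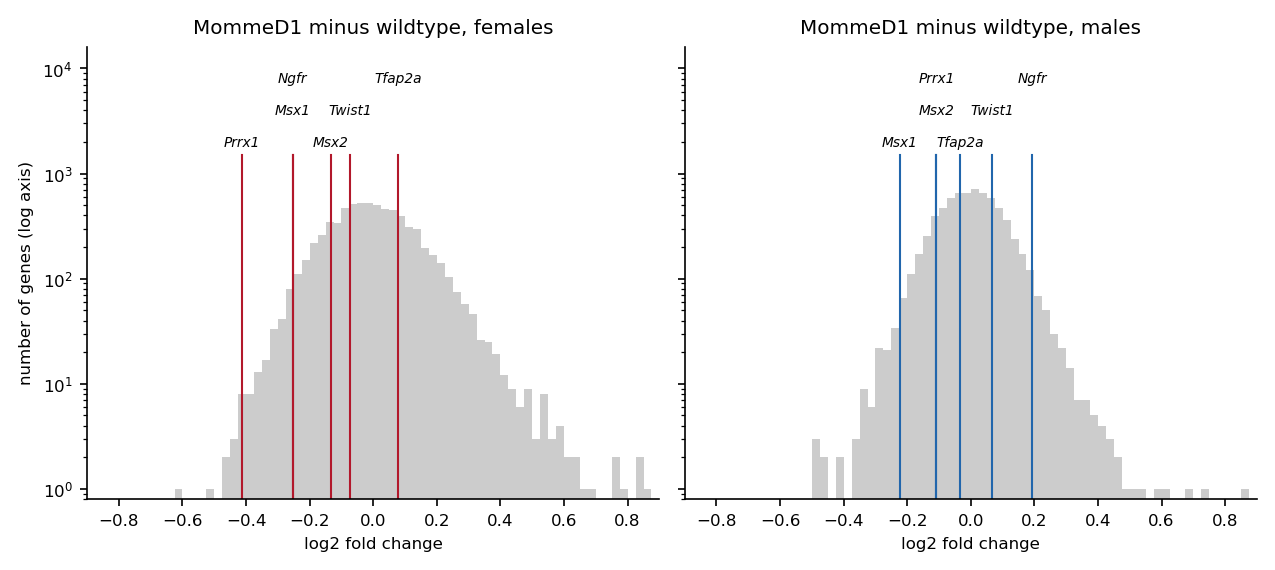
Number of genes (log axis) by log2 fold change of MommeD1 minus wildtype in females (left) and males (right) over the 6999 genes tested, with the 6 tested crest and limb genes marked by lines and values beyond ±0.9 not shown. In females Prrx1 (−0.41), Msx1 and Ngfr (both −0.25) lie in the lower tail, and in males Ngfr (0.19) lies on the other side of 0.

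Other genes of the crest were read from lists by role. Of 12 tested genes of crest induction and specification, 1 was lower in females, Sox5, a SoxD factor of crest and cartilage, at −0.27 ± 0.08 (limma adjusted p = 0.0365), and 5 were lower and 1 higher with an unadjusted p under 0.05, which 25% of all genes had in either direction. Sox5 was also lower over both sexes (−0.21 ± 0.05, adjusted p = 0.0206). The adjusted threshold was passed as lower by 3.33% of all genes in females and by 5.26% over both sexes. The female median of this list was −0.14, against −0.01 over all genes, and in males the median was −0.06 with 0 called. The Sox5 call in females was lost in 6 of the 8 settings that left out 1 female array, whereas its call over both sexes was kept in all 16.

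Of 12 tested genes of migratory crest and its receptors, 3 were lower and 1 was higher over both sexes. Among all genes, 11% passed over both sexes in either direction and 5.26% as lower, and 7.47% passed in females in either direction. Cdh6, a cadherin of premigratory and migrating crest, was −0.23 ± 0.06 (limma adjusted p = 0.016). Plxna2, a semaphorin co-receptor of cardiac crest, was −0.19 ± 0.04 over both sexes (0.0129) and −0.30 ± 0.06 in females (0.00708). Sema3f, a secreted semaphorin that repels crest cells, was −0.15 ± 0.05 (0.0483), a call lost in 15 of the 16 settings that left out 1 array. Without the 3 yolk sac-rich arrays the calls of Plxna2 and Sema3f over both sexes were lost. The gene that was higher was Efnb1, the ephrin-B1 ligand, which is X-linked, at 0.40 ± 0.07 in females (0.0012) and 0.20 ± 0.05 over both sexes (0.0121). The value over both sexes averages the female and male effects. In males, 0 of the 12 genes were higher and 1 was lower with an unadjusted limma p under 0.05. The Efnb1 call over both sexes thus does not show a rise in males.

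Of 5 tested genes of later crest derivatives, 2 were higher and 0 lower over both sexes, where 11% of all genes passed in either direction. The list median was 0.18, against −0.00 over all genes, and no difference from the other lists was tested. Neurog2, a proneural factor of sensory ganglia that is also expressed in the neural tube, was 0.26 ± 0.07 (limma adjusted p = 0.023), and Phox2a, a homeobox factor of autonomic and hindbrain neurons, was 0.18 ± 0.05 (0.0288). The Phox2a call was lost in 6 of the 16 settings that left out 1 array and without the 3 yolk sac-rich arrays. In neither sex alone did a gene of this list pass.

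In facial and pharyngeal arch mesenchyme, 1 of 10 tested genes was lower in females, Tbx3, a T-box factor of arches, limb and heart (−0.23 ± 0.06, limma adjusted p = 0.0241), and the list median was −0.01, the same as over all genes. Among all genes, 3.33% passed as lower in females. The share in either direction was 7.47% in females and 11% over both sexes. In the limb bud list, 0 of 17 tested genes were lower. Irx5, an Iroquois factor, was higher in females (0.28 ± 0.07, adjusted p = 0.0198) and over both sexes (0.19 ± 0.05, 0.0228), and Meis2, a homeobox factor of the proximal limb, was higher over both (0.15 ± 0.05, 0.0472). Leaving out 1 array lost the female calls of Tbx3 and of Irx5 in 4 of 8 settings each and the Meis2 call in 12 of 16, and without the 3 yolk sac-rich arrays the female call of Irx5 was lost. Prrx1 and Msx1 were therefore not accompanied by lower values across the limb list, whose medians were −0.02 in females and 0.02 in males.

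The BMP pathway, upstream of Msx1 and Msx2, had 12 tested ligands, receptors and targets, of which 1 was higher, Gata2 (0.30 ± 0.07 in females, limma adjusted p = 0.0107, and 0.18 ± 0.05 over both sexes, 0.0226), and 0 were lower. Its median was −0.06 in females. Among all genes, 7.47% passed in females and 11% over both sexes, in either direction. Of 6 tested neurotrophin ligands, receptors and partners of Ngfr, 1 was higher in females, the X-linked p75 adaptor gene Bex3 (0.26 ± 0.07, 0.0206), and 0 were lower. The Bex3 call was lost in 3 of 8 settings that left out 1 female array. Of 2 tested E-protein partners of Twist1, 0 passed. In males, 0 genes passed in each of these 8 lists, with 0.114% of all genes passing.

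**Figure D5:**
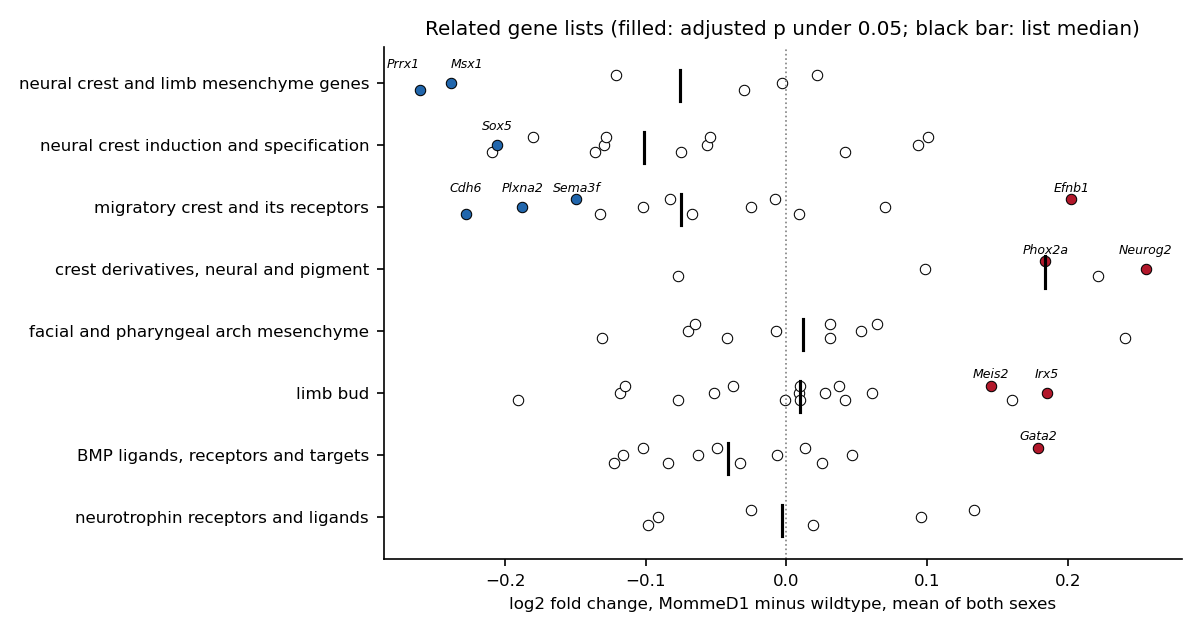
Log2 fold change of MommeD1 minus wildtype averaged over both sexes for the tested genes of 8 lists, 1 point per gene with small vertical offsets, filled where the adjusted p was under 0.05 (red higher, blue lower), and a black bar at the list median. The lists of induction and migration lie mostly left of 0, the 5 genes of crest derivatives lie mostly right of 0, and the limb list is centred near 0 (median 0.01).

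Markers of other tissues were read in the same arrays. In females, 2 of 13 tested cardiac genes, 2 of 9 neural progenitor genes and 1 of 13 endothelial genes were higher, 1 endothelial gene and 1 of 12 primitive erythroid genes were lower, and 0 passed of 10 yolk sac endoderm genes, 10 genes of neuronal differentiation, 5 of somite and myotome and 4 of trophoblast and decidua. Over both sexes, 1 cardiac, 2 neural progenitor and 1 endothelial gene were higher, and 1 endothelial and 1 primitive erythroid gene were lower. No gene of the remaining tissue lists passed over both sexes. For comparison, 7.47% of all genes passed in females in either direction and 3.33% as lower. Over both sexes the shares were 11% and 5.26%, and no list was tested against these shares. The yolk sac endoderm list had a female median of 0.30, and that of trophoblast and decidua 0.16, against −0.01 over all genes. The mean deviation over the 4 genes of trophoblast and decidua spanned −0.01 to 0.20 in MommeD1 females and −0.17 to 0.05 in wildtype females. The mean deviation over the 9 neural progenitor genes spanned −0.01 to 0.12 in MommeD1 females and −0.03 to −0.01 in wildtype females, and that of the 13 cardiac genes −0.05 to 0.24 in MommeD1 females and −0.12 to −0.02 in wildtype females. The part of these tissues in the lower values of Prrx1, Msx1 and Ngfr was not tested. Without the 3 arrays high in yolk sac transcripts, 1 of the 6 genes passed in females (Prrx1) and 2 over both sexes (Prrx1 and Msx1).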

How the data were processed

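Values came from 16 Illumina MouseRef-8 arrays. The deposited values were log2 intensities that the authors normalized between arrays, with beadarray and limma named as software. No source used here says whether background was corrected. A second table held 32 columns of signals and detection p-values under running numbers tied to no embryo and was not used. The labels gave group, replicate number and chip.

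Of 25697 probes, 9785 exceeded 7 on at least 4 arrays. Each gene was read from its kept probe with the highest mean, which left 6999 genes. Models with 4 group means were fitted to all 16 arrays (12 residual degrees of freedom) in limma 3.58.1 under R 4.3.3 (lmFit, eBayes), with Benjamini-Hochberg adjustment over all genes and a threshold of 0.05. The study fitted the sexes separately, which was run as an alternative. The replicates were embryos, numbered in the labels without their litters. Other filters, blocks, weights, normalization and left-out arrays were tried as alternatives. Probes that were not kept were read from a fit of all probes. The precision is limited by 4 arrays per group.

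The genes and lists were chosen with earlier results of these data known. The text names every listed gene past the threshold among the crest-related lists, gives the genes of other tissue lists as counts, and names for Prrx1, Msx1 and Ngfr the 3 genes with the most similar deviations. The scripts were tested on simulated data.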

Additional observations from a re-analysis of the deposited data

Results flagged for a closer look

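Within groups of 4 arrays, 3 values stood apart from the rest among 32 groups examined over the 8 kept probes. Such a gap is flagged by chance in about 5% of groups. Prrx1 probe 1 was 7.933 in MommeD1 female 1, with the nearest of the other 3 at 7.515. Prrx1 probe 2 was 7.459 in MommeD1 male 4, with the nearest of the other 3 at 7.69. Ngfr was 8.115 in the same array, MommeD1 male 4, with the nearest at 8.173, a gap of little size in a group of narrow range. The genotype effect on Ngfr in females minus that in males was −0.446, by the test of the difference itself (limma adjusted p = 0.0382), with MommeD1 below wildtype in all 4 female arrays and above it in all 4 male arrays.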

How the results depend on the processing

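With 4 arrays per group several calls lie near the threshold. The 3 calls in females became 1 without the filter on dim probes, 0 on chip 1 alone, 1 on chip 2 alone, 1 without the 3 arrays high in yolk sac transcripts and 2 in the fit of the female arrays alone (Prrx1 and Msx1), and leaving out 1 array gave 2 to 3. Over all genes the 523 calls in females became 364 without the filter, 25 on chip 1, 42 on chip 2 and 326 without the 3 arrays. The 2 calls over both sexes became 0 on chip 1 and 1 on chip 2, where 8 arrays were left and all genes gave 19 and 91 calls, against 770 on both chips. The 1 call for the difference between the sexes, Ngfr, became 0 without the filter, 0 on either chip and 0 without the 3 arrays, and ranged from 0 to 1 when 1 array was left out. The cause of these changes was not tested. In males 0 of the 6 genes passed in any setting.

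The sign changed only for values that did not pass. On chip 1 alone Tfap2a was −0.041 in females, −0.033 over both sexes and −0.017 as the difference between the sexes, Twist1 was 0.020 over both, and the differences of Msx1 and Msx2 were 0.030 and 0.020. On chip 2 alone Msx2 was 0.014 in males, and Twist1 was −0.028 in males, 0.0017 as the difference and −0.079 between wildtype females and wildtype males. Twist1 over both sexes was 0.010 with array weights, 0.0018 with cyclic loess and 0.030 without the 3 arrays, where the difference of Msx1 was 0.0010. Leaving out 1 array moved Twist1 over both sexes between −0.022 and 0.024, Tfap2a over both between −0.012 and 0.069, the difference of Msx1 between −0.066 and 0.021 and that of Msx2 between −0.079 and 0.058.

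With the replicate number as a block, 3 genes passed in females, 0 in males, 2 over both sexes and 1 as the difference, and no call changed. Arrays of the same number correlated from −0.07 to 0.40 in their deviations, over 0.1 in 3 of 8 pairs. Of the 16 arrays, 6 correlated best with their own number. The labels give no litters, so these values cannot settle whether the numbers pair the embryos. The settings for the other listed genes were added after seeing the data.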
